A study of Mus musculus with 16 samples.

Results

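The proteasome is a barrel-shaped protease that degrades proteins tagged with ubiquitin. Its core particle is built from alpha-ring and beta-ring subunits, and the beta rings hold the proteolytic sites. A regulatory particle, made of a base with ATPase subunits and a lid, binds and unfolds ubiquitin-tagged substrates, and alternative activators can cap the core in its place. In macrophages the proteasome degrades the inhibitors of NF-kB and supplies peptides for antigen presentation, and cytokines can exchange the catalytic beta subunits for immunoproteasome forms.

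The proteasome genes were taken as all array probes whose gene name in the scanner files was a Psma to Psmg symbol with a number, leaving out the immunoproteasome subunits Psmb8, Psmb9 and Psmb10. This gave 63 of 41174 probes and 41 genes. One of them, Psmc3ip, was matched by its name only and is not a subunit, which left 40 proteasome genes. All 40 had at least 1 probe well above background on every array of at least 1 group, and 61 of the 63 probes passed. The 40 genes are 7 alpha-ring and 7 beta-ring subunits, the tissue-restricted alpha subunit Psma8, 6 base ATPases, 3 other base subunits, 8 lid subunits, 3 assembly chaperones of the base, 4 activators and the regulator Psmf1.

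RNA came from adherent peritoneal macrophages of male BALB/cByJ-Lpin1fld/J mice. The fld mice carry the fatty liver dystrophy mutation of Lpin1, which encodes the phosphatidate phosphatase lipin-1, and the control mice were heterozygotes, so that every animal carries the mutant allele and no wild type was used. Ages were not given in the sources used here. The groups were fld macrophages with LPS (100 ng/ml for 5 hours, serum-free), fld macrophages left untreated, control macrophages with the same LPS treatment and control macrophages left untreated, each on 4 one-colour arrays. LPS, bacterial lipopolysaccharide, activates Toll-like receptor 4.

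No slide held arrays of more than 1 group, so slide effects cannot be told apart from those of group. On the 16 arrays, 58.75% to 65.4% of spots stood well above background. The upper quartile of processed intensity lay between 189 and 627. Nothing in the labels names separate cultures beyond the mice, and p-values measure the spread between these arrays. All 9 macrophage markers were well above background on all 16 arrays. Several markers differed between LPS and untreated arrays. Among the macrophage markers, mean Csf1r was 3.57 in fld LPS, 5.99 in fld untreated, 4.17 in control LPS and 5.87 in control untreated arrays. Mean Timd4 was 0.33, 2.66, 0.80 and 2.08 in the same order. Adgre1, Cd68, Itgam and Gata6 also had lower means with LPS in both genotypes. Cd14, Lyz2 and Icam2 went the other way in both, and mean Cd14 was 9.43, 8.38, 9.31 and 8.01. Of the 4 neutrophil-listed markers, 2 passed, with summed levels of 4.21 to 4.71 in fld LPS, -0.05 to 0.45 in fld untreated, 3.09 to 3.92 in control LPS and 0.08 to 1.06 in control untreated arrays. That sum follows S100a8, whereas S100a9 averaged -1.45, -2.22, -3.75 and -2.36, lower with LPS in control macrophages, and Ngp and Ltf were well above background on 1 and 2 of the 16 arrays. The 5 B cell markers summed to 5.91 to 6.42, 6.52 to 7.01, 6.32 to 6.47 and 6.44 to 7.28, with 1 value of the fld LPS arrays left out for an outlier flag. The 5 mast cell markers summed to 5.44 to 7.02 (1 value left out), 5.06 to 6.94, 6.05 to 7.01 and 3.92 to 6.34, and mean Cpa3 was 2.36, 1.95, 2.80 and 1.90. The part of these markers in the results was not tested. A Lpin1 probe read -6.41 to -5.64 on fld LPS arrays 1 to 3 and -6.59 to -6.29 on fld untreated arrays 1 to 3, against -4.20 to -3.55 in control LPS and -4.43 to -3.57 in control untreated arrays. On the number 4 arrays labelled fld it read -3.54 with LPS and -1.55 untreated, at or above the controls, so these 2 arrays go against their label and the counts of calls are also given without them. Levels are log2 processed intensity minus the array's 75th percentile, so that 0 marks that percentile, and a difference of 1 is a 2-fold change.

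With levels set to the array's 75th percentile, LPS raised the transcripts of most proteasome subunits modestly in both genotypes, but the number that passed depended on the scaling. In fld macrophages 21 of the 40 genes were higher after LPS, 3 were lower and 16 did not pass (limma, adjusted p below 0.05). Of all 17458 features tested, 39.6% were called in that comparison, 21.6% as higher and 18.0% as lower. In control macrophages 25 of the 40 were higher, 2 were lower and 13 did not pass, beside 29.4% of all features called, 14.5% as higher and 14.9% as lower. The median log2 change over the 40 genes was 0.37 in fld and 0.39 in control macrophages, against 0.06 and 0.03 over all features. The LPS arrays all lay above the untreated arrays for 16 of the 40 genes in fld macrophages, against 20.9% of all features, and for 28 of the 40 in control macrophages, against 16.6%. They all lay below for 3 genes in fld, against 16.7% of features, and for 2 in control macrophages, against 16.6%. Median scaling gave 4 higher and 4 lower in fld and 10 higher and 1 lower in control macrophages. Quantile normalization gave 18 and 4, and 11 and 2, and normexp background correction 0 and 1, and 0 and 0. Of all features, median scaling called 38% in fld and 23.3% in control macrophages. For quantile normalization these shares were 40.7% and 28.9%, and for normexp 7.77% and 6.34%. Without the number 4 arrays labelled fld, 24 were higher and 2 lower in fld, beside 30.6% of all features called, and 26 higher and 2 lower in control macrophages, beside 33.3%. Without them, 26 of the 40 genes had all fld LPS arrays above the untreated ones and 3 all below, against 27.7% and 21.4% of all features with the same 3 arrays a group.

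The genes called higher were, with 1 exception (Psmd10 in control macrophages), among the 31 subunits of the core and the regulatory particle. All 31 had a positive change in both genotypes in the main setting, but other scalings turned some signs: in fld macrophages 7 of them (Psma3, Psma4, Psma5, Psma7, Psmb1, Psmd6 and Psmd11) were at or below 0 after median scaling and Psma5 after quantile normalization, and in control macrophages only Psma5 was, after quantile normalization. Median scaling moved the median of all features in fld macrophages to -0.18, and the 40 genes then lay 0.33 above it, against 0.31 in the main setting. With normexp background correction, 10 of the 31 were at or below 0 in fld and 17 in control macrophages. There the median of the 40 genes minus that of all features was -0.16 in fld and -0.18 in control macrophages. In the main setting 21 of the 31 passed in fld macrophages, with changes from 0.06 to 0.89 and a median of 0.42, or 1.34-fold. In control macrophages 24 of the 31 passed, with changes from 0.23 to 1.06 and a median of 0.43, or 1.35-fold. Without the number 4 arrays labelled fld, 24 of the 31 passed in fld and 25 in control macrophages. The genes called higher overlapped: 19 were shared, which is 90.5% of the fld list and 76.0% of the control list. The 2 comparisons have no array in common, but they come from the same limma model, with a shared variance for each gene. The 2 lists are therefore not independent, and the overlap over all features is not given as a base. Psmb5 and Psmc5 were called higher in fld macrophages and missed the threshold in control macrophages. Psma4, Psmb2, Psmc1, Psmd6, Psmd11 and Psmd10 did the reverse. A second, dimmer Psmc5 probe passed in both (0.47 in fld, adjusted p = 0.0296, and 0.45 in control macrophages, adjusted p = 0.0436). Of the 16 fits that left out 1 array, the control call was lost in 10 for Psmd11, 7 for Psma4, 3 for Psmd6 and 1 for Psmb2.

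**Figure D1:**
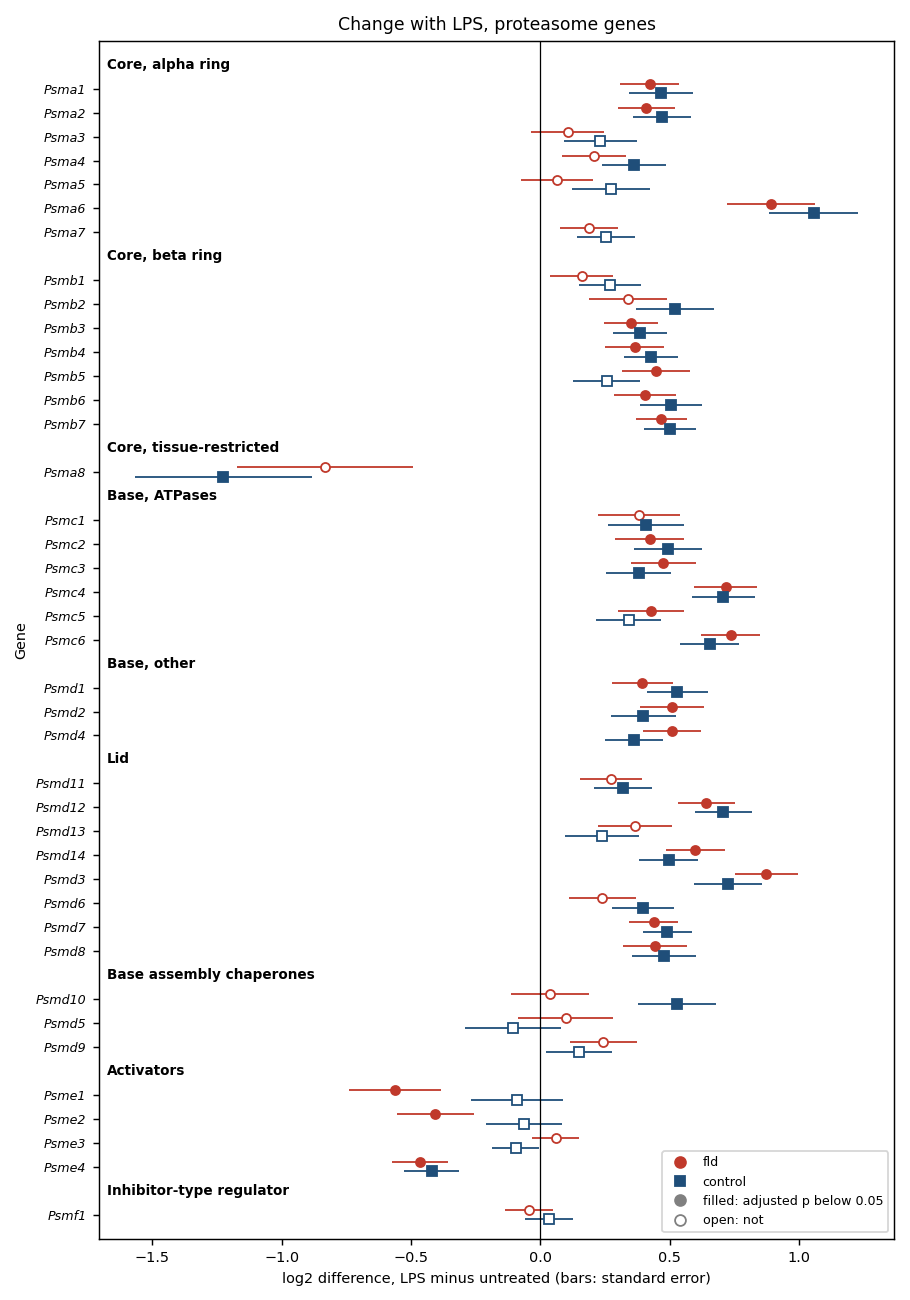
Change with LPS (log2 difference, LPS minus untreated, with its standard error) for each of the 40 proteasome genes by class, in fld (red circles) and control macrophages (blue squares); filled symbols passed an adjusted p of 0.05. The core, base and lid subunits all lie right of 0 in both genotypes at this scaling (7 of the 31 do not in fld macrophages after median scaling), and Psme4 lies left of 0 in both.

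Promoter stretches of 6 genes are printed here because these genes rose with LPS (Psma6, Psmd12, Psmc6 and Psmc4) or fell (Psme4, and Psme1 in fld macrophages). Psmd3, which rose more than Psmd12, has no promoter in the table used. RefSeq promoters (GRCm38.p6, 250 bases before to 50 after the start site) were given for 34 of the 41 matched genes. Each line gives the 150 bases before the start site, 5′ to 3′ on the gene's strand, with a motif match in capitals where it lies wholly inside the stretch. Matches that cross the start site, which are an ETS match in Psma6 and an antioxidant-element match in Psme4, stay in lower case. Psma6 has 2 promoters in the table and the downstream one is shown.
Psma6, chr12:55398675-55398824, plus strand: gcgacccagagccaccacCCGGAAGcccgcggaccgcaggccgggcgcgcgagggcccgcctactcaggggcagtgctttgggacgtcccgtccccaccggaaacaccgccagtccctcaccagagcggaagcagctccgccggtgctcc
Psmd12, chr11:107479378-107479527, plus strand: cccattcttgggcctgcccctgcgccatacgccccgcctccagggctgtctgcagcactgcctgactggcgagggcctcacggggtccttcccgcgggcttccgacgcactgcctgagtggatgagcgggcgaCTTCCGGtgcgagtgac
Psmc6, chr14:45329674-45329823, plus strand: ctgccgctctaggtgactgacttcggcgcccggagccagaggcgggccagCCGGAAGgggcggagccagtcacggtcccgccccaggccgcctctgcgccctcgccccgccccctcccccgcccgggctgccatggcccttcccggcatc
Psmc4, chr7:28050093-28050242, minus strand: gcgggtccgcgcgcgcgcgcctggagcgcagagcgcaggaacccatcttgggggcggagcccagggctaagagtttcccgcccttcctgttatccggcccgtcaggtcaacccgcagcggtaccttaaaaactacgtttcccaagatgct
Psme4, chr11:30771625-30771774, plus strand: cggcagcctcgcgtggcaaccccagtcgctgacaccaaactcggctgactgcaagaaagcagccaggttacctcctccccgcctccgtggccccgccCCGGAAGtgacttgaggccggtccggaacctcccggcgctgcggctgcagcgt
Psme1, chr14:55578344-55578493, plus strand: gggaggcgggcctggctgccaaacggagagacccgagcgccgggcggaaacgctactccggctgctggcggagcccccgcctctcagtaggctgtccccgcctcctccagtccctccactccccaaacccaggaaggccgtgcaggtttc

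The capitals in these stretches are the ETS letters CCGGAAG, read on either strand. They begin 132 bases before the start site in Psma6, 17 in Psmd12, 100 in Psmc6 and 53 in Psme4. Over the whole promoter windows, 10 of the 25 core and regulatory particle genes with a promoter held these letters (40.0%), against 9.9% of 27025 genes, and so did Psme3 and Psme4 among the 4 activators. The antioxidant response element core TGACNNNGC, which Nrf1 (Nfe2l1) and Nrf2 can bind, was in 4 of the 25, or 16%, against 14% of all genes. The AP-1 letters TGAGTCA were in 0 of the 25, against 5.9%, and CCAAT was in 10 of the 25 (40.0%), against 41.1%. The nuclear respiratory factor letters GCATGCG were in 2 of the 25 (8.0%, against 4.0%), and the CRE letters TGACGTC, which can overlap the antioxidant core, were in 1 (4.0%, against 3.6%). The ETS letters stood in Psma6, Psmd12 and Psmc6, which rose, and in Psme4, which fell.

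Among the alpha-ring subunits, which gate the entry to the core, 3 of 7 rose in fld and 4 of 7 in control macrophages. Psma6 had the largest difference of all 40 genes in the upward direction. It read 5.23, 4.74, 4.95 and 4.40 on the fld LPS arrays, against 3.91, 3.73, 4.32 and 3.79 on the fld untreated arrays. In control macrophages it read 4.99, 4.86, 5.23 and 5.11 with LPS, against 4.03, 3.90, 4.21 and 3.82 untreated. LPS and untreated arrays did not overlap in either genotype, and the lowest LPS value was that of fld replicate 4. The difference was 0.89 ± 0.17 (SE; 1.85-fold, adjusted p = 0.00105) in fld and 1.06 ± 0.17 (2.08-fold, adjusted p = 3.1e-04) in control macrophages. The Psma6 probe lies on chromosome 12 from 53336175 to 53336234 by the position printed with it. No source used here names the build of the probe positions, which are not on the scale of the RefSeq promoters.

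Psma2 read 6.12, 6.02, 6.20 and 5.82 on fld LPS arrays, against 5.66, 5.67, 5.66 and 5.53 on fld untreated arrays. In control macrophages its values were 6.07, 5.98, 5.87 and 6.04 with LPS, against 5.76, 5.50, 5.52 and 5.28 untreated. The groups were again separate, with changes of 0.41 (adjusted p = 0.00947) in fld and 0.47 (adjusted p = 0.00487) in control macrophages. Psma1 changed by 0.42 and 0.47 (adjusted p = 0.0107 and 0.0114). Psma3, Psma5 and Psma7 passed in neither genotype, with changes of 0.06 to 0.19 in fld and 0.23 to 0.27 in control macrophages.

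Of the 7 beta-ring subunits 5 rose in each genotype. The 3 that carry the proteolytic sites of the constitutive core are Psmb5 (chymotrypsin-like), Psmb6 (caspase-like) and Psmb7 (trypsin-like). Psmb7 read 3.36, 3.06, 3.19 and 2.87 on fld LPS arrays, against 2.68, 2.59, 2.64 and 2.69 on fld untreated arrays. Control macrophages had 3.09, 3.03, 3.11 and 3.15 with LPS, against 2.65, 2.55, 2.67 and 2.49 untreated. Every LPS value lay above every untreated value, and the change was 0.47 ± 0.10 (SE, adjusted p = 0.00205) in fld and 0.50 ± 0.10 (adjusted p = 0.00142) in control macrophages.

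Psmb6 rose by 0.40 (adjusted p = 0.0156) in fld and by 0.51 (adjusted p = 0.00509) in control macrophages. In fld macrophages its groups overlapped, since LPS replicate 4 read 5.34 and untreated replicate 3 read 5.36, and its call was lost without fld untreated replicate 2 (adjusted p = 0.0553). Psmb5 read 4.75, 4.35, 4.64 and 4.10 on fld LPS arrays, against 4.08, 3.89, 4.19 and 3.88 on fld untreated arrays. The control values were 4.53, 4.30, 4.33 and 4.46 with LPS, against 4.18, 4.12, 4.19 and 4.10 untreated. The fld groups overlapped through LPS replicate 4 and the control groups did not, while the change of 0.45 ± 0.13 passed in fld (adjusted p = 0.0139) and that of 0.26 ± 0.13 did not in control macrophages (adjusted p = 0.16). The difference between these 2 responses was 0.19 ± 0.18 and was not called (adjusted p = 0.80). Psmb4 changed by 0.37 and 0.43 (adjusted p = 0.0208 and 0.00695) in fld and control macrophages, and without fld untreated replicate 2 its fld call was lost (adjusted p = 0.0983).

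Psma8, an alpha subunit of the testis proteasome, was dim. It read -2.61, -4.49, -3.04 and -3.13 on fld LPS arrays, against -2.43, -1.84, -3.22 and -2.45 on fld untreated arrays. On control arrays the level was -3.41, -3.21, -2.74 and -2.99 with LPS, against -2.15, -1.79, -1.70 and -1.80 untreated. The groups overlapped in fld and were separate in control macrophages. The change was -0.83 ± 0.34 (SE, adjusted p = 0.0647) in fld and -1.23 ± 0.34 (adjusted p = 0.0136) in control macrophages, and the probe was well above background on 3 of 4 fld LPS arrays.

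The ATPases of the base, which unfold substrates and feed them into the core, rose in 5 of 6 cases in each genotype. Psmc6 read 5.34, 5.10, 5.27 and 5.08 on fld LPS arrays, against 4.53, 4.34, 4.50 and 4.47 on fld untreated arrays. In control macrophages it read 5.02, 5.16, 4.93 and 5.08 with LPS, against 4.67, 4.49, 4.16 and 4.25 untreated. The groups were separate in both genotypes, by 0.74 ± 0.11 (SE, adjusted p = 2.0e-04) in fld and 0.65 ± 0.11 (adjusted p = 5.6e-04) in control macrophages. A second, dimmer Psmc6 probe changed by 0.30 in fld macrophages and missed the threshold (adjusted p = 0.0584).

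Psmc4 rose by 0.72 (adjusted p = 4.1e-04) in fld and 0.71 (adjusted p = 5.0e-04) in control macrophages. Its LPS values were 4.91, 4.38, 4.59 and 4.25 in fld, against 3.70 to 3.89 untreated, and 4.47 to 4.64 in control, against 3.73 to 3.94 untreated. Psmc3 changed by 0.48 in fld (adjusted p = 0.00823) and 0.38 in control macrophages (adjusted p = 0.0329). Psmc2 changed by 0.42 (adjusted p = 0.0204) and 0.49 (adjusted p = 0.0108). For both genes the fld LPS and untreated arrays overlapped. Psmc3 read 2.59 on fld LPS replicate 4 and 2.61 on fld untreated replicate 3. By the brightest probe, Psmc1 and Psmc5 each passed in 1 genotype, with adjusted p between 0.0153 and 0.0689 over the 4 tests. In fld macrophages the LPS and untreated arrays of both genes overlapped. The Psmc1 call in control macrophages was lost in 14 of the 16 fits that left out 1 array, with adjusted p up to 0.13, and that of Psmc3 in 6 of 16, with adjusted p up to 0.0763. The Psmc2 call in fld macrophages was lost in 3 of 16, without fld untreated replicate 2 or 4 or fld LPS replicate 1, with adjusted p up to 0.0613.

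All 3 other base subunits rose in both genotypes. Psmd4, a ubiquitin receptor, read 4.62, 4.27, 4.28 and 4.02 on fld LPS arrays, against 3.77, 3.73, 3.88 and 3.77 on fld untreated arrays. Control macrophages had 4.28, 4.23, 4.15 and 4.13 with LPS, against 3.99, 3.86, 3.77 and 3.73 untreated. No LPS array overlapped an untreated one, and the change was 0.51 ± 0.11 (SE, adjusted p = 0.0028) in fld and 0.36 ± 0.11 (adjusted p = 0.0246) in control macrophages. The control call was lost without untreated replicate 3 or 4 or LPS replicate 1 or 2, with adjusted p up to 0.0656. Psmd1 and Psmd2, the scaffold subunits that dock ubiquitin-binding proteins, changed by 0.39 and 0.51 in fld and by 0.53 and 0.40 in control macrophages, with adjusted p from 0.00349 to 0.0249. The Psmd1 call was lost in fld macrophages without fld LPS replicate 1 (adjusted p = 0.0522), and the Psmd2 call in control macrophages in 4 of the 16 fits that left out 1 array (adjusted p up to 0.0721).

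The lid, which carries the deubiquitinase of the regulatory particle, had 5 of 8 subunits higher in fld and 7 of 8 in control macrophages. Psmd12 read 5.45, 5.10, 5.32 and 5.04 on fld LPS arrays, against 4.60, 4.43, 4.83 and 4.48 on fld untreated arrays. The control values were 5.16, 5.14, 5.28 and 5.28 with LPS, against 4.53, 4.47, 4.56 and 4.47 untreated. These groups did not overlap, and the change was 0.64 ± 0.11 (SE, adjusted p = 4.2e-04) in fld and 0.71 ± 0.11 (adjusted p = 2.1e-04) in control macrophages. All 3 Psmd12 probes passed in both genotypes, with changes between 0.42 and 0.71.

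Psmd3, a structural lid subunit, read 7.56, 7.29, 7.53 and 7.01 on fld LPS arrays, against 6.49, 6.43, 6.54 and 6.44 on fld untreated arrays. On control arrays the level was 7.17, 7.23, 7.16 and 7.29 with LPS, against 6.27, 6.62 and 6.56 untreated, where the spot of replicate 1 carried an outlier flag and was left out. The change was 0.87 ± 0.12 (SE, adjusted p = 1.1e-04) in fld and 0.73 ± 0.13 (adjusted p = 9.2e-04) in control macrophages. Psmd14, the lid deubiquitinase, read 4.77, 4.51, 4.58 and 4.43 on fld LPS arrays, against 3.88, 3.78, 4.13 and 4.12 untreated. In control macrophages it read 4.39, 4.52, 4.59 and 4.55, against 4.23, 4.02, 3.97 and 3.84 untreated. It was higher with LPS on every array, by 0.60 (adjusted p = 1.0e-03) in fld and 0.50 (adjusted p = 0.0043) in control macrophages. A second, dimmer Psmd14 probe changed by 0.45 in fld macrophages and missed the threshold (adjusted p = 0.0659). In control macrophages that probe changed by 0.54 (adjusted p = 0.038). Psmd7 changed by 0.44 and 0.49 (adjusted p = 0.00227 and 0.00114), although the dimmest of its 3 probes passed in neither genotype (0.16 and 0.25). Psmd13 passed in neither genotype, at 0.37 in fld (adjusted p = 0.0542) and 0.24 in control macrophages (adjusted p = 0.23).

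**Figure D2:**
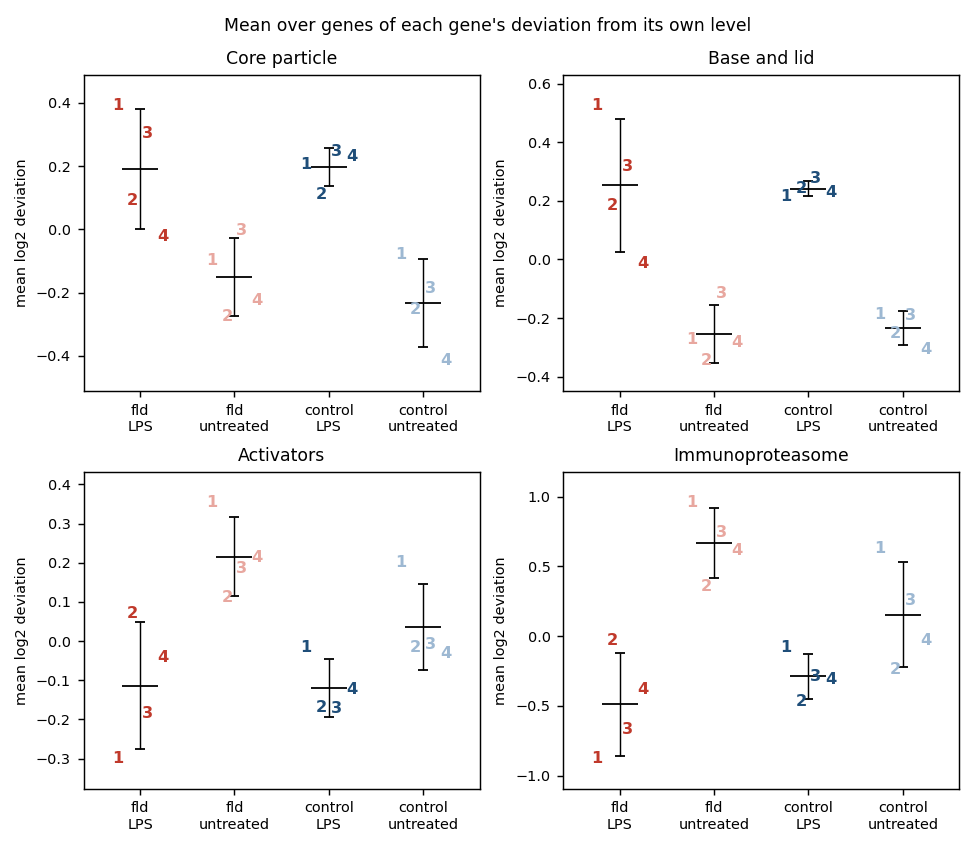
Mean over the genes of a class of each gene's log2 deviation from its own level, on every array (digits are replicate numbers; bars are mean and SD of 4 arrays), for fld LPS, fld untreated, control LPS and control untreated. In the fld LPS group the core and the base and lid run from replicate 1, the highest, to replicate 4, the lowest, and the immunoproteasome is lowest in replicate 1.

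The fld LPS arrays spread more than the others. Averaged over the 17 base and lid genes, the deviation from each gene's own level was 0.53, 0.18, 0.32 and -0.01 on the fld LPS arrays and -0.27, -0.34, -0.12 and -0.28 on the fld untreated arrays. It was 0.22, 0.24, 0.28 and 0.23 on the control LPS arrays and -0.19, -0.25, -0.19 and -0.31 on the control untreated arrays. Of the 30 core and regulatory particle genes with a value on all 4 fld LPS arrays, replicate 1 was the highest in 25 and replicate 4 the lowest in 27. Over the 14 core genes, fld LPS replicate 4 lay at -0.02, below the highest fld untreated array at -0.00. The 75th percentile of intensity was 386, 252, 412 and 189 on fld LPS arrays 1 to 4, and its part in this order was not tested. Leaving out 1 array at a time, the fld median over the 40 genes ranged from 0.30 without fld LPS replicate 1 to 0.46 without replicate 4, and the control median from 0.36 to 0.40.

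The assembly chaperones of the base help to put the ATPase ring together. Psmd10 (gankyrin) was the only one of the 3 that passed, and in control macrophages only. It read 2.28, 2.08, 2.06 and 1.68 on fld LPS arrays, against 2.00, 1.99, 2.26 and 1.70 on fld untreated arrays. Control macrophages had 2.11, 2.22, 2.30 and 2.23 with LPS, against 1.68, 1.59, 2.03 and 1.45 untreated. The groups overlapped in fld (0.04 ± 0.15, SE, adjusted p = 0.86) and were separate in control macrophages (0.53 ± 0.15, adjusted p = 0.0148). The difference between the responses, -0.49 ± 0.21, was not called (adjusted p = 0.48). Psmd9 had changes of 0.24 and 0.15, and Psmd5 of 0.10 and -0.11, in fld and control macrophages, none of which passed.

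The activators went the other way or did not pass. None of the 4 was higher with LPS, 3 were lower in fld macrophages and 1 was lower in control macrophages. Psme4 (PA200), a large nuclear cap of the core, fell in both genotypes. It read 4.09, 4.15 and 3.87 on fld LPS arrays 1, 3 and 4, against 4.63, 4.51, 4.36 and 4.49 on fld untreated arrays. The control values were 4.12, 3.98 and 4.04 on LPS arrays 1, 3 and 4, against 4.58, 4.49, 4.33 and 4.48 untreated. Array 2 of both LPS groups was left out for an outlier flag, and the remaining groups did not overlap. The change was -0.46 ± 0.11 (SE, adjusted p = 0.00453) in fld and -0.42 ± 0.11 (adjusted p = 0.00959) in control macrophages. The 2 other Psme4 probes that passed the filter were also negative in both genotypes, between -0.75 and -0.40, and 1 of them missed the threshold in fld macrophages (adjusted p = 0.0656).

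Psme1, a subunit of the interferon-inducible PA28 cap, read 4.96, 5.62, 5.11 and 5.67 on fld LPS arrays, against 6.15, 5.68, 5.93 and 5.84 on fld untreated arrays. On control arrays the level was 5.56, 5.31, 5.36 and 5.48 with LPS, against 5.96, 5.34, 5.48 and 5.29 untreated. In fld macrophages the groups did not overlap but nearly met (LPS replicate 4 at 5.67, untreated replicate 2 at 5.68), with replicates 1 and 3 well below 2 and 4 after LPS. In control macrophages they overlapped. The change was -0.56 ± 0.18 (SE, adjusted p = 0.0219) in fld and -0.09 ± 0.18 (adjusted p = 0.76) in control macrophages, and the difference between the responses, -0.47 ± 0.25, was not called (adjusted p = 0.60). The fld call was lost without fld untreated replicate 1, fld LPS replicate 1 or fld LPS replicate 3, with adjusted p up to 0.0682.

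Psme2, its partner subunit, changed by -0.41 ± 0.15 (adjusted p = 0.0495) in fld and -0.06 ± 0.15 (adjusted p = 0.80) in control macrophages. Its fld call was lost in 14 of the 16 fits that left out 1 array, with adjusted p up to 0.19. Its fld LPS values were 6.60, 7.07, 6.89 and 6.86, against 7.31 and 7.21 on the 2 fld untreated arrays without an outlier flag. The files name both its probes after the near-identical copy Psme2b-ps, so the source of the signal is uncertain, and the second probe read -0.53 in fld and 0.22 in control macrophages. Psme3, the nuclear PA28 gamma cap, had changes of 0.06 (adjusted p = 0.63) and -0.10 (adjusted p = 0.47). Psmf1 (PI31), which binds the core, had changes of -0.04 and 0.03 by its brightest probe. Its 3 probes disagreed, since 1 was lower in fld macrophages (-0.33, adjusted p = 0.0359) and another higher in control macrophages (0.36, adjusted p = 0.0229).

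**Figure D3:**
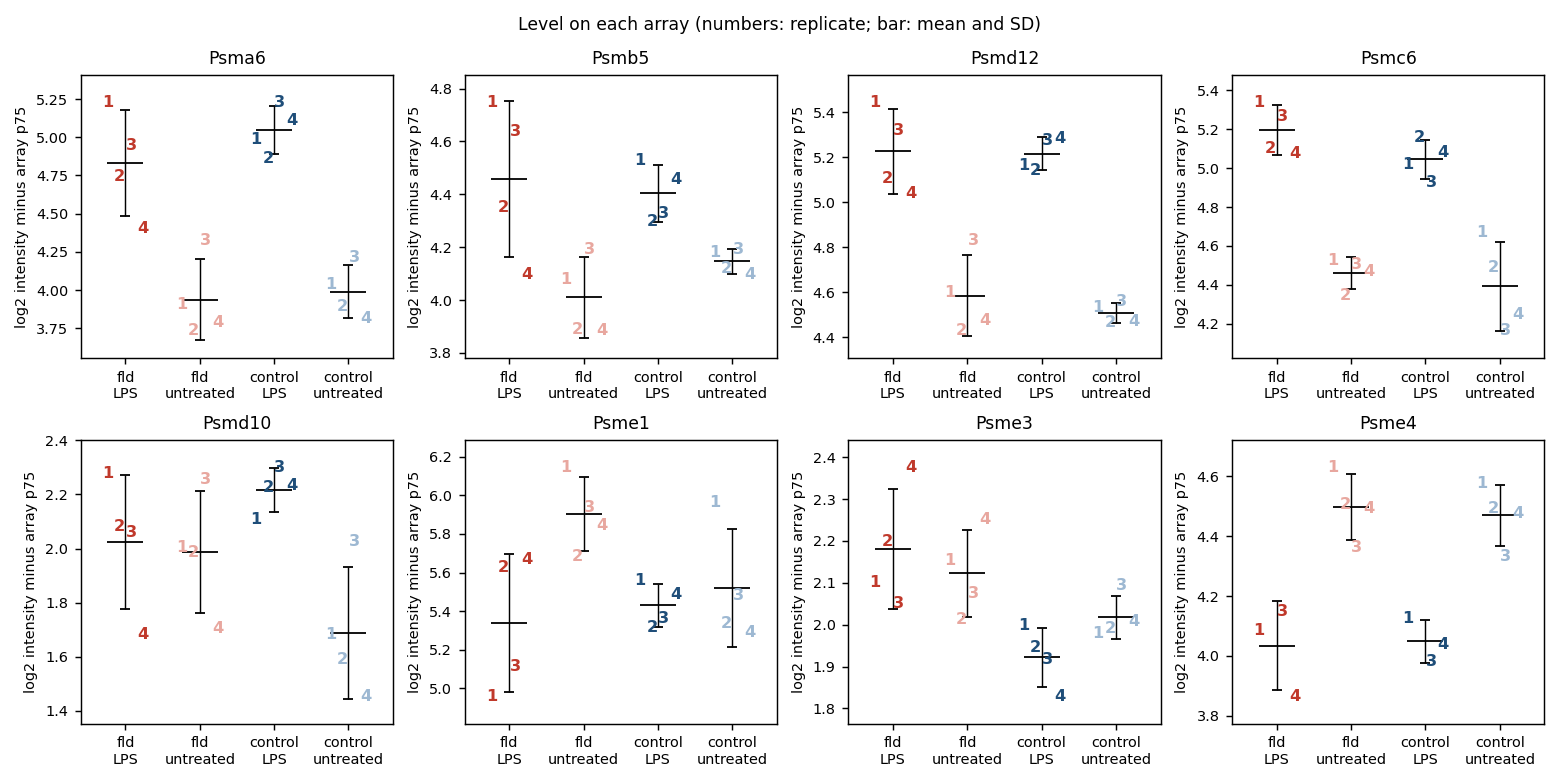
Level (log2 intensity minus the array's 75th percentile) of 8 proteasome genes on every array, with replicate numbers as symbols and the mean and SD of each group. Psma6, Psmd12 and Psmc6 are separate between LPS and untreated in both genotypes, Psme4 is separate in the other direction, and Psmd10 and Psme1 are separate in 1 genotype each.

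The immunoproteasome subunits, which replace the catalytic beta subunits, were set beside these genes. Psmb9 (LMP2) read 3.34, 4.25, 3.71 and 3.88 on fld LPS arrays, against 5.31, 4.74, 5.03 and 5.06 on fld untreated arrays. In control macrophages it read 4.17, 3.73, 3.95 and 3.97 with LPS, against 5.11, 4.19, 4.68 and 4.26 untreated. Both pairs of groups were separate, and the change was -1.24 ± 0.21 (SE, adjusted p = 4.7e-04) in fld and -0.61 ± 0.21 (adjusted p = 0.0457) in control macrophages. Psmb8 and Psmb10 were lower in fld macrophages, by -1.07 (adjusted p = 0.00159) and -1.16 (adjusted p = 2.8e-04). In control macrophages they had -0.38 (adjusted p = 0.24) and -0.22 (adjusted p = 0.45). On fld LPS arrays all 3 were lowest in replicate 1, the array on which most core, base and lid genes were highest. The difference of responses was not called for any of the 3 (adjusted p of 0.52, 0.55 and 0.26).

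Of the other genes of the pathway, 29 of 30 listed were on the array and tested. In fld macrophages 9 were higher and 2 lower with LPS, and in control macrophages 11 were higher and 1 lower. The called share was 37.9% in fld, near the 39.6% of all features, and 41.4% in control macrophages, against 29.4%. These counts were equal without the number 4 arrays labelled fld, beside 30.6% of all features called in fld and 33.3% in control macrophages. All 9 of the fld list were in the control list (81.8% of it). Nploc4, Vcp and Ufd1, which form the segregase that extracts ubiquitinated proteins, changed by 0.71, 0.65 and 0.58 in fld and by 0.64, 0.68 and 0.63 in control macrophages, with adjusted p from 5.5e-05 to 8.6e-04. Uba1, the ubiquitin-activating enzyme, rose by 0.86 (adjusted p = 7.8e-05) in fld and 0.69 (adjusted p = 2.5e-04) in control macrophages. Adrm1, a ubiquitin receptor of the base, rose by 0.54 (adjusted p = 9.2e-04) and 0.48 (adjusted p = 0.00271), and Txnl1, a thioredoxin-like protein bound to the regulatory particle, by 0.51 (adjusted p = 0.00188) and 0.64 (adjusted p = 2.1e-04).

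Nfe2l1 encodes the factor known to induce proteasome genes when proteasome activity is short, and Ngly1 the glycanase that processes it. Nfe2l1 had a change of 0.15 (adjusted p = 0.42) in fld and rose by 0.62 (adjusted p = 0.00326) in control macrophages. Ngly1 had 0.10 (adjusted p = 0.53) in fld and rose by 0.50 (adjusted p = 0.004) in control macrophages. The difference between the responses was not called for either gene (adjusted p of 0.48 and 0.44). Ddi2, the protease that activates the same factor, rose by 0.43 (adjusted p = 0.00724) in fld and 0.40 (adjusted p = 0.0137) in control macrophages. A second, dimmer Ddi2 probe changed by 0.34 (adjusted p = 0.0218) in fld and -0.02 (adjusted p = 0.92) in control macrophages. That probe was also lower in fld than in control untreated macrophages (-0.51, adjusted p = 0.0174). The genes that were lower in fld macrophages were Fbxo7 (-0.36, adjusted p = 0.0151) and Nfe2l2 (-0.54, adjusted p = 0.0311). In control macrophages Ubqln4 was lower (-0.31, adjusted p = 0.0418). The LPS and untreated arrays overlapped in each of these comparisons. Fbxo7 binds Psmf1, and Ubqln4 is a shuttle for ubiquitinated proteins. The brightest of 4 Nfe2l2 probes was used. Those of middle brightness had -0.57 and -0.62 in fld macrophages (adjusted p = 0.0159 and 0.00398). In control macrophages the same probes had -0.32 and -0.45 (adjusted p = 0.17 and 0.0291). The dimmest had 0.40 in fld (adjusted p = 0.12) and 0.50 in control macrophages (adjusted p = 0.0503), and passed in neither.

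In the main setting no proteasome gene differed between fld and control macrophages by the test. After LPS this depended on the scaling: median scaling called 12 of 40 lower in fld than in control macrophages, with a median difference of -0.39 over the 40 genes, where that over all features was -0.37. The differences and intervals below are those of the main setting. After LPS, 0 of 40 were called by limma, beside 17.0% of all features. An unadjusted p below 0.05 was reached by 1 of 40, beside 26.6% of all features. Untreated, 0 of 40 were called, beside 4.98% of all features. Again 1 of 40 had an unadjusted p below 0.05, beside 18.5% of all features. The same 0 of 40 held in both comparisons without the number 4 arrays labelled fld, beside 13.2% of all features after LPS and 6.33% untreated. After LPS, the differences over the 31 core and regulatory particle genes ran from -0.22 to 0.15, and 30 of the 31 95% intervals lay within 0.5 of 0 in either direction. The exception was Psma6, with an interval from -0.58 to 0.15. Untreated, the differences ran from -0.17 to 0.19 and all 31 intervals lay within those bounds. The widest bound was 0.489 for Psma5, or 1.403-fold. These intervals include the number 4 arrays labelled fld, and none are given without those arrays.

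Outside these 31 genes the intervals were wider. Psme3 had the lowest adjusted p after LPS. It read 2.10, 2.20, 2.05 and 2.38 on fld LPS arrays, against 2.00, 1.95, 1.92 and 1.83 on control LPS arrays. The groups did not overlap, and the difference was 0.26 ± 0.09 (SE, adjusted p = 0.067). A second, dimmer Psmd4 probe was higher in fld than in control macrophages after LPS (0.39, adjusted p = 0.00852), while the brighter one, used above, differed by 0.10 (adjusted p = 0.65). Psme1 had the lowest adjusted p among untreated arrays, with a difference of 0.38 ± 0.18 (adjusted p = 0.27) and overlapping groups. Psmb10 was higher in fld untreated macrophages, at 6.70, 6.23, 6.45 and 6.39, against 5.33, 5.93 and 5.72 on the 3 control untreated arrays without an outlier flag (0.78 ± 0.20, adjusted p = 0.0352).

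**Figure D4:**
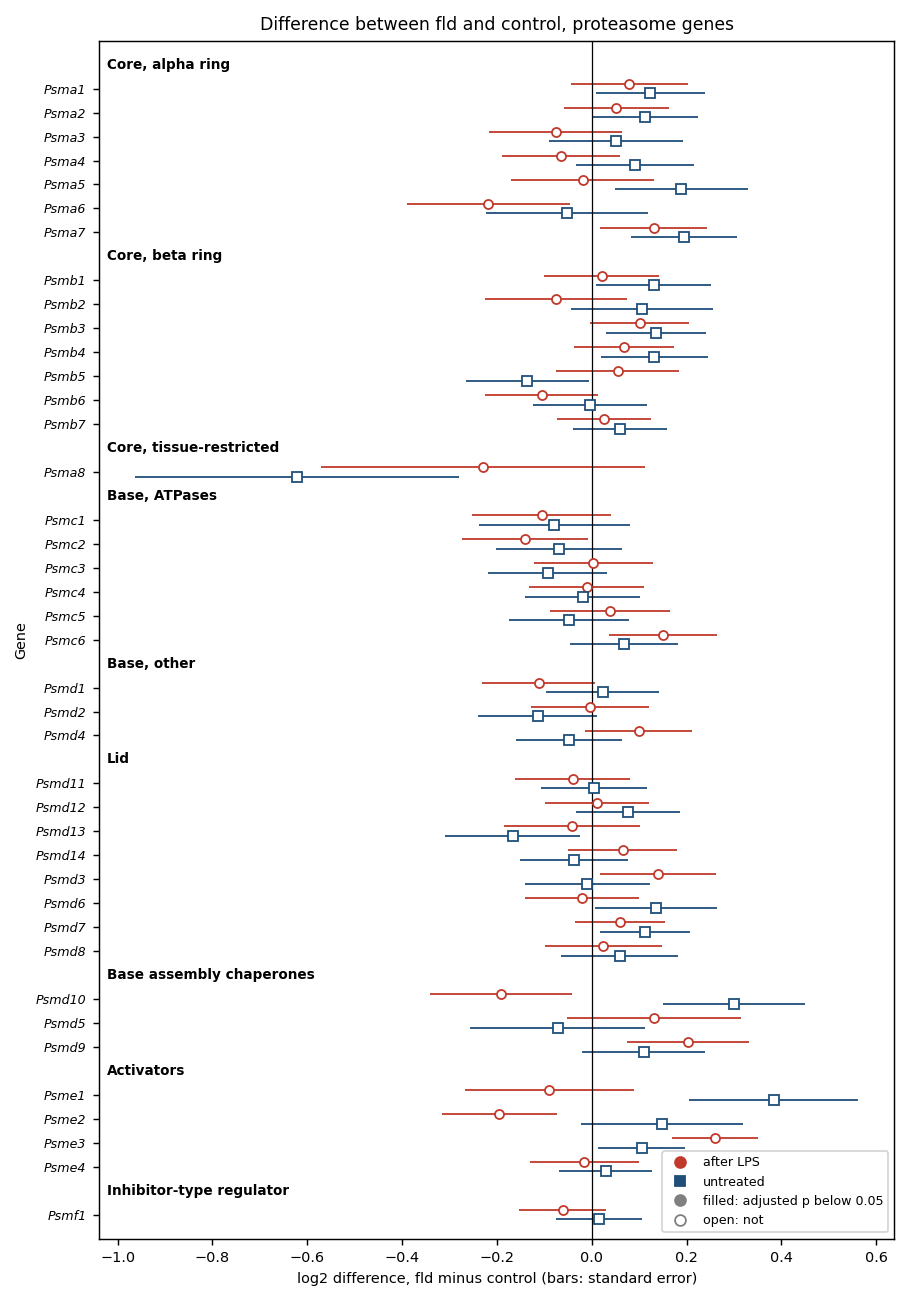
Difference between fld and control macrophages (log2, fld minus control, with its standard error) for the 40 proteasome genes by class, after LPS (red circles) and untreated (blue squares). All symbols are open because none passed an adjusted p of 0.05 at this scaling. With median scaling 12 did after LPS, beside 48.4% of all features. The core, base and lid genes lie between -0.22 and 0.19.

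The difference between the LPS responses, fld minus control, was called for 0 of 40 genes by limma and for 0% of all features, also without the number 4 arrays labelled fld. An unadjusted p below 0.05 was reached by 1 of 40 proteasome genes and by 9.33% of features. Over the 31 core and regulatory particle genes the difference ran from -0.21 to 0.19, and 22 of the 31 intervals lay within 0.5 of 0 in either direction. The widest bound among them, -0.68 for Psma6, is a 1.61-fold weaker response.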

How the data were processed

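The deposited scanner files were made with Agilent Feature Extraction 9.5.1.1 for array design 014868, per the file headers, and hold the processed intensity of each spot, background-subtracted by that software, with flags for spots well above background, saturated or outliers. A value table deposited with the series was also read: its ratio values equal the authors' processed intensity over the array median within 0.1%. Members and gene lists were chosen with earlier results of these data known.

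From the intensity, log2 values were taken after scaling to the array's 75th percentile over non-control spots. Values with an outlier flag (1.34%) were left out. A probe was kept if well above background on all 4 arrays of a group (25528 of 41174), and the brightest kept probe stood for a gene, giving 17458 features. Psme2 and others were named through their accession in RefSeq; Psmg1 to Psmg3 carry older names in the files and lie outside the name rule. One limma 3.58.1 model (R 4.3.3, lmFit and eBayes) of 4 group means over 16 arrays gave 5 comparisons, with Benjamini-Hochberg adjustment over all features (over all kept probes for second probes); it was tested on simulated data. A fold is 2 to the power of the log2 difference, and the number of arrays limits the precision. Named were, in each LPS comparison and class, up to 3 called genes of lowest adjusted p, every called member between genotypes, and a listed set of catalytic, receptor, activator and chaperone genes; pathway genes were named by lowest adjusted p. Psmd5, Psmd13, Psmc1, Psmc5, Psma3, Psma5, Psma7, Nfe2l1, Ngly1 and Ddi2 were named after their values were seen. The labels do not say whether equal replicate numbers share a mouse, and no pairing was used. Alternatives were quantile normalization, median scaling, another percentile base, normexp background correction, other filters and probe rules, a replicate block and leaving out arrays.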

Additional observations from a re-analysis of the deposited data

Results flagged for a closer look

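Among 163 groups of 4 arrays with complete values over the proteasome and immunoproteasome genes, 1 held an array far from the other 3, and chance gives about 1 in 20. Psma2 read 5.53 on fld untreated replicate 4, while the nearest other array of that group read 5.66 and the 3 others lay within 0.02 of each other. The array is one of the number 4 arrays labelled fld on which Lpin1 did not match its label.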

How the results depend on the processing

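The number of calls depended on the scaling. Of the 31 core and regulatory particle genes, the LPS change was at or below 0 for 7 in fld and 0 in control macrophages with median scaling, for 1 in each with quantile normalization, for 10 and 17 with normexp, for 2 in fld macrophages with normexp after the reset, and for 1 in fld macrophages without fld LPS replicate 3. Called proteasome genes in fld macrophages, 24 in the main setting, were 8 with median scaling (4 higher, 4 lower), 1 with normexp and 15 with normexp after extreme local backgrounds were reset. Of all features, 38%, 7.77% and 46.5% were called there in the same order. In control macrophages, 27 became 13 with quantile normalization (11 higher), 11 with median scaling (10 higher) and 0 with normexp. The shares of all features called there were 28.9%, 23.3% and 6.34%. Median scaling called 12 proteasome genes lower in fld than in control LPS arrays, beside 48.4% of all features called. It moved the median of all features there to -0.37, against 0.03 in the main setting. In fld macrophages 29.6% of all LPS calls were higher with median scaling, against 54.6% in the main setting, and 74.4% of calls between genotypes after LPS were higher with quantile normalization, against 94.6%. Relative to all features, the member medians for LPS were 0.33 in fld and 0.36 in control macrophages with median scaling. In the main setting they were 0.31 and 0.36, and with quantile normalization 0.30 and 0.23. With normexp they were -0.16 and -0.18, and with normexp after the reset 0.12 and 0.31. Without a filter on dim probes they were 0.07 and 0.27. Local backgrounds reached 65243, 65239 and 1059 on fld LPS 1, control LPS 2 and control LPS 4.

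Under plain normexp these called values changed sign. In fld macrophages they were Psmb3 -0.0483, Psmb4 -0.0302, Psmd7 -0.0012 and Rad23b -0.0169. In control macrophages they were Psma1 -0.2281, Psma2 -0.0437, Psma4 -0.1338, Psma8 0.0225, Psmb3 -0.0748, Psmb4 -0.0716, Psmc1 -0.0433, Psmc3 -0.0177, Psmd11 -0.1346, Psmd14 -3e-04, Psmd2 -0.03, Psmd4 -0.1576, Psmd6 -0.1285, Psmg3 -0.0415 and Rad23b -0.2457. The cause of each shift was not tested.

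All-feature calls between genotypes also moved. Untreated (869), they were 534 with quantile normalization, 0 with normexp, 43 with normexp after the reset, 464 when probes had to be well above background on all 16 arrays and 565 with the other percentile base, which was chosen after seeing the data. After LPS (2961), they were 8447 with median scaling (1994 higher, against 2802 higher and 159 lower in the main setting) and 0 with normexp. LPS calls under normexp were 1356 in fld and 1107 in control macrophages. The difference of responses (0) had 13 calls with quantile normalization, 7 with median scaling and 10 with the replicate block; the block gave 24 and 28 called proteasome genes in fld and control macrophages and changed no count of proteasome genes between genotypes. Deviations of equal-numbered arrays correlated from -0.10 to 0.26, with 1 of 4 fld and 2 of 4 control pairs over 0.1. The control pairs were all positive, from 0.09 to 0.26. Unequal-numbered arrays correlated from -0.42 to 0.38 in fld and from -0.26 to 0.21 in control macrophages. These values do not settle whether the numbers mark pairs. The labels name none, so the numbers were not taken as pairs.

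Leaving out 1 array at a time, called proteasome genes ranged from 21 to 27 in fld and 20 to 28 in control macrophages, from 0 to 1 between genotypes after LPS (without fld LPS replicate 3, 1 higher), and stayed at 0 in the other comparisons. Of the called genes, 18 of 24 in fld and 19 of 27 in control macrophages were called each time. All-feature counts ranged from 353 to 1610 untreated between genotypes, where the lowest was without fld untreated replicate 1 and the highest without fld LPS replicate 4, from 2122 to 3246 between genotypes after LPS, and from 0 to 1 for the difference of responses.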

Other observations

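The core assembly chaperones and the thymus core subunit carry older names in the scanner files. Psmg1 read 0.15, 0.19, 0.27 and 0.28 on fld LPS arrays, against 0.37, 0.51 and 0.67 on the 3 fld untreated arrays without an outlier flag, a difference of -0.30 (adjusted p = 0.058). In control macrophages it had -0.14 (adjusted p = 0.37). Psmg3 had 0.17 (adjusted p = 0.21) in fld and was higher by 0.34 (adjusted p = 0.0227) in control macrophages. Psmg2 had 0.07 and 0.08, and passed in neither. Psmb11, the thymus core subunit, was well above background on 4 of 4 fld untreated arrays, 2 of 4 in each LPS group and 0 of 4 control untreated arrays, so its level there is only a bound.

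The 40 proteasome genes lie on 16 chromosomes by the scanner files' positions, with 8 on chromosome 11 and 6 on chromosome 2. Of the 15 proteasome genes with more than 1 kept probe, all probes shared a sign in 15 of 15 genes in fld and 13 of 15 in control macrophages, and they shared a call in 8 and 11.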
